A study of Mus musculus with 3 samples.

Results

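The transcripts described here are those of 8 cartilage collagen genes: Col2a1, Col9a1, Col9a2, Col9a3, Col10a1, Col11a1, Col11a2 and Col27a1. They were taken by symbol from the 32285 genes of each count table, and all 8 were found. The cells were bone-lining cells (BLCs), which coat bone surfaces, from the femora, tibias and iliac bones of wild-type (WT) mice. The bones were digested with type I collagenase, and the sort took Alcam-positive cells that lacked CD45, Ter119, CD31 and Sca-1. No animal was treated, and the labels give no age, batch or animal number. The libraries form 1 group, Alcam_BLC, of 3 replicates, so populations of cells were compared within these libraries. The sort selects against blood and endothelial cells by surface protein, and the collagenase step sets which matrix-bound cells are released. The labels call the tissue bone marrow, but most of the sorted cells carried cartilage transcripts, as described below.

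Collagens are trimeric proteins of the extracellular matrix. In cartilage, collagen II, the product of Col2a1, forms thin fibrils together with collagen XI, whose chains come from Col11a1, Col11a2 and again Col2a1. Collagen IX, made of the products of Col9a1, Col9a2 and Col9a3, decorates the fibril surface, and collagen XXVII (Col27a1) is a further fibrillar collagen of cartilage. Collagen X (Col10a1) forms a network and is the classical product of hypertrophic chondrocytes in the growth plate, where columnar chondrocytes divide and enlarge before bone replaces them.

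After filtering, 18232 cells remained, 2476, 6363 and 9393 in replicates 1, 2 and 3, with a median of 5614, 9704 and 5814 unique molecular identifiers (UMIs) per cell. Between 5 and 28 cell barcodes were shared by pairs of libraries. Cells were clustered with the 8 collagens left out of the variable genes and of the marker lists, so that no population was made from them. Genes that vary with them did shape the clusters, however, and the p-values below measure how repeatable a difference was over libraries. Nothing in the labels says that the libraries came from separate animals, so this spread may be technical. Of 16892 mesenchymal cells, 13755 fell in 6 chondrocyte-like states, which held 24.1% of the cells of replicate 1 but 83.3% and 83.6% of those of replicates 2 and 3.

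The columnar state (3314 cells) carried Matn3, a cartilage matrilin, at 1907 ± 68.1 CPM (mean ± SD, n = 2), and Prkg2, a kinase of growth plate chondrocytes, at 551 ± 28.3. CPM (counts-per-million) gives a gene's share of the UMIs summed over a population in a library. The cycling state (357 cells) carried the division markers Mki67 at 504 ± 24.3 CPM and Top2a at 733 ± 85 (n = 2). The Wnt-marker state (2591 cells) carried the Wnt effector Lef1 at 420 ± 152 and the Wnt antagonist Notum at 188 ± 10.7 CPM (n = 3). Of the same marker list, Sfrp5 lay at 203 CPM over all cells of the state, but Axin2 at only 4.47. Axin2 lay at 1.34 CPM in the columnar state, 9.81 in the Ibsp-rich state and 12.7 in Cxcl12-abundant reticular cells. The list behind the columnar state was mixed too. Its Fgfr3 lay at 69.1 ± 1.99 CPM there (n = 2) against 98.9 ± 19.5 in the Wnt-marker state (n = 3). Its Matn3 was higher in the cycling state, at 2090 ± 38.4 (n = 2). Matn1, Epyc and Hapln1 of that list were highest in the columnar state, at 36.0, 221 and 4175 CPM over all its cells. The Wif1-rich state (3554 cells) carried the Wnt inhibitor Wif1 at 2366 ± 116 CPM, a level close to that of the Ibsp-rich state described after the superficial one (2312 ± 483, n = 3). The superficial state (2142 cells) carried Prg4, the lubricin of joint surfaces, at 84026 ± 41585 CPM, and Cilp, a protein of articular cartilage, at 8379 ± 1266. Cilp2, also on its list, lay at 1113 CPM over all cells of the state, the highest of the mesenchymal clusters. Abi3bp of that list lay at 758 CPM, below the Wif1-rich state (773), fibroblast-like cluster 8 (951) and tendon-like cells (1850). The remaining state (1797 cells) was the one picked by a hypertrophic marker list, whose genes gave a mixed picture. Ihh, the hedgehog signal of prehypertrophic cells, lay at only 12.7 ± 14.4 CPM (n = 3), though no other population had a higher mean. Of the same list, Ibsp, a bone sialoprotein, lay at 30094 ± 5275. Mef2c lay at 178 ± 49.2 against 44.6 ± 16.2 in the columnar state, and Mmp13 at 73.2 ± 55.8 against 1.82 ± 1.10. Pth1r was near the columnar level (299 ± 170 against 293 ± 52.2) and Panx3 below it (17.8 ± 20.1 against 38.2 ± 13.3). Prg4, which is not on that list, lay at 43064 ± 2463. This state is called the Ibsp-rich state here. The Wif1-rich state also carried much Ibsp (18624 ± 7760 CPM) and Prg4 (64475 ± 25866, n = 3), so neither gene is particular to it. Replicate 1 held only 10 columnar cells and 1 cycling cell, so these 2 states rest on replicates 2 and 3, since levels were summed only over at least 20 cells of a library.

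In the GRCm38 annotation (GENCODE M21), the genes lie on 7 chromosomes. Col2a1 spans chr15:97975602-98004695 on the minus strand, and the others lie on the plus strand. Col9a1 spans chr1:24177610-24252684, Col9a2 chr4:121039385-121055322 and Col9a3 chr2:180597790-180622189. Col11a1 spans chr3:114030540-114220718, Col11a2 chr17:34039437-34066685 and Col27a1 chr4:63214004-63334991. Col10a1 spans chr10:34389981-34397085. Col10a1 overlaps Nt5dc1, and Col9a3 overlaps Tcfl5, each on the opposite strand. Promoter windows (RefSeq, GRCm38.p6, from 250 bases before to 50 after the transcript start) were present for 6 of the 8 genes, in 7 windows. The 3 below are shown because they belong to genes with different patterns over the populations. Col9a2 was highest in the columnar state and Col11a2 in osteoblast-like cells. Col10a1 was highest in the Wif1-rich, Ibsp-rich and superficial states. Capitals mark the GC box GGGCGG or its complement. They also mark the TATA box TATAAA or its complement.
Col9a2, chr4:121039316-121039615, plus strand: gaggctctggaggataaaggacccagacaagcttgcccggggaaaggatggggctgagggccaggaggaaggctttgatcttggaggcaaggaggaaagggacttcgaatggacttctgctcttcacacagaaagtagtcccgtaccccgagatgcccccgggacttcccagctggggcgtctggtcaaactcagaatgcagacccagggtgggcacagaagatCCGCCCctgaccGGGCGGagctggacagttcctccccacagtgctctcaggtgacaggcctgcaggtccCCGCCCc
Col11a2, chr17:34038888-34039187, plus strand: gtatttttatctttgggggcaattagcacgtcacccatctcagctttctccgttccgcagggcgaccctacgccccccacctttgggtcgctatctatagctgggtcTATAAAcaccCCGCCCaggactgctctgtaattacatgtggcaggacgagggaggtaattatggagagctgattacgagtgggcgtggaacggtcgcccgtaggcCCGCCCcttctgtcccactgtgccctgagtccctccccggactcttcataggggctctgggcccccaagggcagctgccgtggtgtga
Col10a1, chr10:34389731-34390030, plus strand: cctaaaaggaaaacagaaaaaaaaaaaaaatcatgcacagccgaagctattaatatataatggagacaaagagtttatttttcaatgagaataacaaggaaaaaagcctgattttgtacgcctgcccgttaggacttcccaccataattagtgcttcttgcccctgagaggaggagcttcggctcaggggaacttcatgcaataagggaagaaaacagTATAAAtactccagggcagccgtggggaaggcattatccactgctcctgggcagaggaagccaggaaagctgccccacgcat

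The Col9a2 window held 3 GC boxes and no TATA box. The Col11a2 window held 2 GC boxes and 1 TATA box, and the Col10a1 window held 1 TATA box and no GC box. Col11a1 and Col27a1 each had 2 GC boxes, and neither Col9a1 window had either motif. Of 32851 windows of 300 bases, 35.7% held GGGCGG and 13.6% held TATAAA on either strand. None of the 7 windows held ACAAT, the core bound by SOX factors, or ACCACA, a RUNX core, which were in 31.0% and 16.8% of all windows. These matches are descriptions of the letters in those windows.

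Haematopoietic cells that passed the sort (1132 cells, Ptprc at 90.7 ± 32.7 CPM, n = 3) gave the background of free RNA. They should make no cartilage collagen. Their Col2a1 level was 2.38 CPM in replicate 1 but 982 and 1086 CPM in replicates 2 and 3, the libraries rich in chondrocytes. That level was 0.708%, 3.61% and 4.78% of the level over all cells of each library. In replicates 2 and 3, 65.9% and 61.3% of these Col2a1 UMIs sat in 5 cells per library, and without those cells the level was 353 and 433 CPM. Thinned to 1000 UMIs per cell, 0.4%, 38.7% and 37.4% of haematopoietic cells had a Col2a1 UMI. Col11a1 gave 6.06, 122 and 175 CPM in the same cells and Col27a1 2.27, 21.9 and 33.8 CPM. Col10a1 gave 20.1, 54.1 and 8.08 CPM, of which 78.5% and 92.5% sat in 1 cell in replicates 1 and 2. Every member level below is to be read against the haematopoietic level of the same library.

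Col2a1, the main fibrillar collagen of cartilage, reached 43450 and 39896 CPM in the columnar state of replicates 2 and 3. The cycling state held 43060 and 41084 CPM, which overlapped the columnar values. The Wif1-rich state followed with 1746, 27138 and 23826 CPM in replicates 1, 2 and 3, the Ibsp-rich state with 4352, 17575 and 17989, and the Wnt-marker state with 1248, 18387 and 16202. Over replicates 2 and 3 the last 2 overlapped each other, and all 3 lay below the columnar state. The superficial state held 557, 4086 and 3896 CPM and osteoblast-like cells 804, 1523 and 2101 CPM. CAR-like cells (Cxcl12-abundant reticular cells, marrow stroma) held 12.2, 894 and 1546 CPM and tendon-like cells 24.5, 954 and 985, the latter below the haematopoietic level in replicates 2 and 3. The columnar level was 44.2 and 36.7 times that of haematopoietic cells in replicates 2 and 3.

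**Figure D1:**
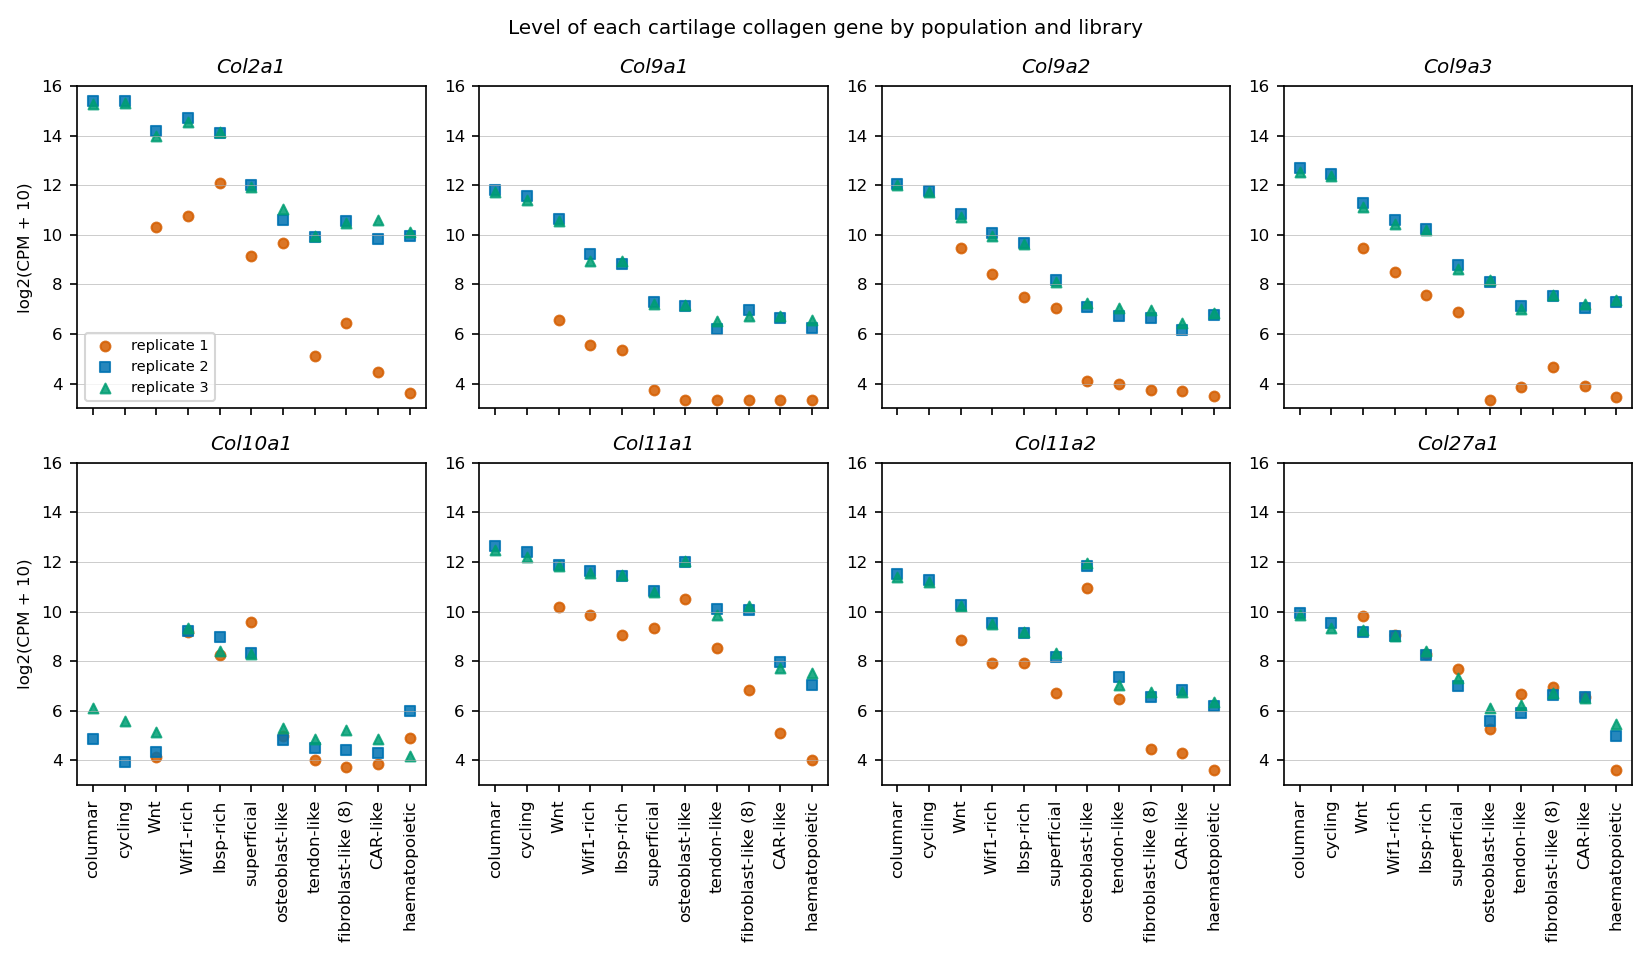
Level of each of the 8 collagen genes, as log2 of CPM plus 10, in 11 populations (x axis); each point is 1 library with at least 20 cells of that population, and colour and shape give the replicate. 7 genes were highest in the columnar or cycling state or, for Col11a2, in osteoblast-like cells, Col10a1 was high only in the Wif1-rich, Ibsp-rich and superficial states among the populations shown, and replicate 1 lay low for most genes other than Col10a1 and Col27a1.

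From the columnar state, the 3 collagen IX genes fell more than Col2a1 in the Wif1-rich, Ibsp-rich and superficial states. In the Wnt-marker state Col2a1 fell 2.36 and 2.46 times in replicates 2 and 3. There Col9a1 fell 2.26 and 2.27 times, Col9a2 2.35 and 2.44 times and Col9a3 2.69 and 2.72 times. Col9a1 fell from 3603 and 3368 CPM in the columnar state to 1592 and 1481 in the Wnt-marker state, 591 and 486 in the Wif1-rich state and 148 and 138 in the superficial state of replicates 2 and 3. Haematopoietic cells held 66.3 and 84.1 CPM in those libraries, so the superficial level was only 2.24 and 1.64 times the background. In replicate 1 the superficial Col9a1 level was 3.6 CPM. Haematopoietic cells there had 0 UMIs, with an upper limit of the 95% counting interval of 0.399 CPM. Col9a2 ran from 4273 and 4099 CPM in the columnar state to 279 and 261 in the superficial state, against 99.1 and 106 in haematopoietic cells. Col9a3 ran from 6705 and 5952 CPM to 426 and 383, against 148 and 157. For all 3 genes the columnar, cycling and Wnt-marker states did not overlap each other in replicates 2 and 3. Osteoblast-like, tendon-like and CAR-like cells held at most 277 CPM of any collagen IX gene in any library.

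The 2 collagen XI genes extended outside the chondrocyte states. Col11a2 was highest in osteoblast-like cells (954 cells), at 1991, 3633 and 3973 CPM in replicates 1, 2 and 3. The columnar state held 2884 and 2688 CPM, so osteoblast-like cells exceeded it 1.26 and 1.48 times within replicates 2 and 3, and the ranges did not overlap. Haematopoietic cells held 2.16, 63.8 and 70.6 CPM. Thinned to 1000 UMIs, 72.4%, 94.2% and 94.8% of osteoblast-like cells had a Col11a2 UMI, against 89.0% and 87.5% of columnar cells and 9.0% and 5.3% of haematopoietic cells in replicates 2 and 3. Osteoblast-like cells were shallow, with a median of 3562, 2400.5 and 1527 UMIs. Their collagen II was low, as given above, so the high Col11a2 was not shared by Col2a1. Col11a1 was highest in the columnar state, at 6322 and 5751 CPM, and osteoblast-like cells held 1458, 4045 and 4156 CPM, 0.640 and 0.723 of the columnar level in replicates 2 and 3. Tendon-like cells held 358, 1100 and 924 CPM of Col11a1 and fibroblast-like cluster 8 held 103, 1066 and 1168, above the 6.06, 122 and 175 CPM of haematopoietic cells in all 3 libraries. Osteoblast-like cells were 1.25%, 6.13% and 5.67% of the cells and held 21.9%, 4.39% and 5.34% of all Col11a2 UMIs.

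For Col27a1, as for Col10a1, replicate 1 did not lie low in most states. Col27a1 reached 977 and 930 CPM in the columnar state and 737 and 645 CPM in the cycling state. The Wnt-marker state held 886, 568 and 605 CPM, the Wif1-rich state 528, 511 and 511, the Ibsp-rich state 301, 296 and 326 and the superficial state 195, 119 and 150. Over replicates 2 and 3 the ranges of these 6 states did not overlap. Osteoblast-like cells, high in Col11a1 and Col11a2, held only 28.4, 38.6 and 58.5 CPM of Col27a1, against 2.27, 21.9 and 33.8 in haematopoietic cells.

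Col10a1 had a different order. The Wif1-rich state held 572, 582 and 641 CPM (598 ± 37.2, mean ± SD, n = 3), the Ibsp-rich state 291, 493 and 328 (371 ± 107) and the superficial state 760.5, 307 and 299.7 (456 ± 264). The columnar state held 19.2 and 58.8 CPM, the cycling state 5.4 and 38.2, and the Wnt-marker state 7.4, 10.4 and 25.03, against 20.1, 54.1 and 8.08 in haematopoietic cells. These 3 states lay below the haematopoietic level in replicate 2, of which 92.5% sat in 1 cell, and above it in replicate 3. The 3 states with Col10a1 were those with the most Prg4. Fibroblast-like cluster 8 also carried Prg4 (15839 ± 7258 CPM, n = 3), but its Col10a1 was only 14.0 ± 12.1 CPM. The 3 states held 21.5%, 40.2% and 46.9% of the cells and 90.8%, 92.5% and 89.3% of all Col10a1 UMIs. The columnar and cycling states together held 27.1% and 20.6% of the cells of replicates 2 and 3, 67.2% and 55.6% of the Col2a1 UMIs, 79.3% and 71.6% of the Col9a1 UMIs, but 4.33% and 8.03% of the Col10a1 UMIs.

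A Col10a1 UMI was seen in a minority of the cells of each state. Without thinning, the shares were 44.0%, 29.5% and 29.5% of Wif1-rich cells, 26.5%, 24.3% and 20.5% of Ibsp-rich cells and 23.3%, 13.9% and 15.5% of superficial cells in replicates 1, 2 and 3, against 3.49%, 7.62% and 7.74% of haematopoietic cells. Thinned to 1000 UMIs, 20.0%, 15.6% and 16.7% of Wif1-rich cells, 12.6%, 10.2% and 8.6% of Ibsp-rich cells and 15.1%, 5.9% and 7.4% of superficial cells had a Col10a1 UMI, against 0.6%, 0.5% and 1.9% of haematopoietic cells. Cells with at least 20 Col10a1 UMIs, a limit set after the distribution had been seen, numbered 344, or 1.89% of all cells, and held 75.0% of all Col10a1 UMIs. The Wif1-rich state had 192 of them, the Ibsp-rich state 70 and the superficial state 69, together 96.2%. The columnar state had 8, which held 74.0% of the Col10a1 UMIs of that state. The limit is one of absolute UMIs, so deeper cells pass it more easily. In replicate 1, 28 of the 35 such cells were superficial, and the Wif1-rich level of that library rested on 25 cells, of which 2 were such cells.

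Within the superficial state, the cells with at least 20 Col10a1 UMIs carried Acan, the large proteoglycan of cartilage, at 2264, 2450 and 2771 CPM in replicates 1, 2 and 3, against 1098, 932 and 1044 in the other superficial cells. Spp1, the osteopontin gene, lay at 3258, 9558 and 5127 CPM against 2695, 1987 and 2284. In the Wif1-rich state, Spp1 lay at 5498 and 6025 CPM in such cells of replicates 2 and 3 against 1490 and 2185 in the others, and Col2a1 at 19836 and 19704 against 27873 and 24093. Ihh was at most 28 CPM in such cells in any of the 3 states and libraries. These are values of cells chosen by their Col10a1 and were not tested.

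Detection of members in the same cell was counted after thinning to 1000 UMIs. Among Wif1-rich cells with a Col10a1 UMI, 65.1% and 63.8% had a Col9a2 UMI in replicates 2 and 3, against 55.5% and 55.1% of the others. Among Ibsp-rich cells the shares were 58.0% and 55.8% against 44.6% and 45.3%. Among superficial cells they were 14.0%, 32.4% and 28.4% against 7.2%, 21.7% and 22.04% in replicates 1, 2 and 3. The direction was the other in columnar cells, with 87.0% and 89.3% against 94.7% and 94.1%, and in Wnt-marker cells of replicate 3, with 55.3% against 72.3%, where 23, 28 and 38 cells had a Col10a1 UMI. For Col27a1 the shares were near each other in Wif1-rich cells, at 40.1% and 39.7% against 40.3% and 38.2%. In columnar cells with a Col9a1 UMI, 97.9% and 97.3% also had Col9a3, against 89.9% and 86.1% of those without. In Wnt-marker cells these shares were 86.1% and 81.9% against 67.0% and 61.4%. In osteoblast-like cells they were 30.2% and 31.8% against 30.04% and 24.2%. In haematopoietic cells of replicate 3, of which 25 had a Col9a1 UMI, they were 28.0% against 8.78%. A difference of this kind was thus also seen in the background cells and is not particular to chondrocytes.

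The first comparison asked whether the members stood above the free RNA. In edgeR's quasi-likelihood test on summed counts, with Benjamini-Hochberg adjustment over 16283 genes, 66.3% of all genes differed between the columnar state and haematopoietic cells, 35% being higher and 31.4% lower in the columnar state. Of the 8 members, 7 were higher in the columnar state, with log2 changes from 5.93 to 6.11, and in 2 of 2 libraries each. Col10a1 did not pass, with a log2 change of 0.37 ± 0.59 (SE, adjusted p = 0.598). It was higher in replicate 3 (7.28 times) and lower in replicate 2 (0.354 times), where 92.5% of the haematopoietic UMIs sat in 1 cell. Without replicate 2 its change was 1.82 (adjusted p = 0.0434) and without replicate 3 it was -0.99 (adjusted p = 0.152). Without replicate 1, whose haematopoietic cells had the least of the other 7 transcripts, 74.1% of all genes passed and the 7 changes were 5.37 to 5.79.

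Between the chondrocyte-like clusters and the other mesenchymal clusters, 40.6% of all genes passed, 26.6% being higher and 13.9% lower in the chondrocyte-like clusters. All 8 members were higher in the chondrocyte-like clusters, in 3 of 3 libraries. The log2 change was largest for Col9a3 (6.18 ± 0.49), Col9a1 (5.68 ± 0.52) and Col9a2 (5.56 ± 0.45), followed by Col2a1 (5.01 ± 0.51). It was smaller for Col10a1 (3.79 ± 0.46), Col27a1 (3.44 ± 0.25), Col11a1 (2.68 ± 0.23) and Col11a2 (2.63 ± 0.25), the last 2 being the genes that osteoblast-like cells also carried. Without replicate 1, 51.1% of genes passed, all 8 members still passed, and the changes were smaller. Their order changed as well, with Col2a1 first (4.21), then Col9a2 (4.07), Col9a3 (3.89) and Col9a1 (3.54). The others were 3.08 for Col27a1, 2.80 for Col10a1, 2.23 for Col11a2 and 2.11 for Col11a1. The lead of collagen IX thus depended on replicate 1. Fibroblast-like cluster 11 and the pericyte-like cluster had sums only in replicate 1, and the columnar and cycling states had none there. The part of this in the order was not tested.

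The superficial state was lower than the columnar state in 7 members and higher in Col10a1. Of all genes 43.6% passed, 20.2% being higher and 23.4% lower. The log2 change was -4.56 ± 0.47 for Col9a1, -3.31 ± 0.57 for Col9a3, -3.15 ± 0.57 for Col9a2, -3.05 ± 0.43 for Col11a2 and -2.82 ± 0.77 for Col2a1 (adjusted p = 0.00356). It was -2.49 ± 0.41 for Col27a1 and -1.30 ± 0.41 for Col11a1 (adjusted p = 0.0101), the least reduced member. Col10a1 was higher by 3.94 ± 0.67 (adjusted p = 1.7e-05), or 16 and 5.10 times within replicates 2 and 3. The columnar level of replicate 2 (19.2 CPM) was below that of haematopoietic cells (54.1). As 92.5% of those haematopoietic UMIs sat in 1 cell, 54.1 CPM is an uncertain measure of free RNA. Every Col10a1 fold of that library is therefore taken against a low level whose height over free RNA is unsure. Without replicate 1, which has no columnar sum, the Col10a1 change was 3.10, 59.4% of all genes passed and all 8 members still did. Leaving out replicate 2 or 3 leaves 1 columnar library, and then Col2a1 (adjusted p = 0.199 and 0.147) and Col11a1 (0.393 and 0.26) did not pass, nor did Col9a2 without replicate 2 (0.0589), with their directions kept.

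The Ibsp-rich state was also higher than the columnar state in Col10a1 and lower in 6 other members. Of all genes 45.6% passed, 22.2% being higher and 23.3% lower. Col10a1 was higher by 3.45 ± 0.64 on the log2 scale (adjusted p = 5.8e-05), or 25.7 and 5.58 times within replicates 2 and 3. The first fold is again against a columnar level under that of haematopoietic cells, most of which sat in 1 cell. Col9a1 was lower by 2.62 ± 0.45, and Col9a3, Col9a2 and Col11a2 had changes of -2.31 ± 0.55, -2.30 ± 0.54 and -2.13 ± 0.42. Col27a1 changed by -1.63 ± 0.40 and Col11a1 by -1.16 ± 0.40 (adjusted p = 0.0176). Col2a1 did not pass in the fit of 3 libraries (-0.41 ± 0.77, adjusted p = 0.698), but it did without replicate 1 (-1.18, adjusted p = 1.39e-09), where 61.2% of all genes passed. Without replicate 2 the 6 lower members no longer passed (adjusted p from 0.0662 to 0.322), and without replicate 3 only Col11a2 and Col10a1 did, with the other 5 lower members at adjusted p from 0.0522 to 0.18. The Col11a1 call held in 6 of 15 alternatives and was lost among others at resolution 1 (adjusted p = 0.158), with the members kept among the variable genes (0.112) and without doublet removal (0.113). The Col27a1 call held in 10 of 15 and was lost under the same 3 settings (-0.57, -0.80 and -1.10, adjusted p = 0.264, 0.121 and 0.0625). In these settings the cells were clustered again, and the cluster picked held 1550, 3948 and 3582 cells against 1797. The Wif1-rich state was not tested against the columnar state. Within replicates 2 and 3 its Col2a1 was 0.625 and 0.597 of the columnar level and its Col10a1 30.4 and 10.9 times that level, the first with the same limit.

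The Wnt-marker state lay below the columnar state in the CPM of every member over replicates 2 and 3. Of all genes 29.7% passed, 15.5% being higher and 14.2% lower, but only 1 member did, Col11a2, with -1.27 ± 0.41 (adjusted p = 0.0205). This call held in 8 of 15 alternatives. It was lost without replicate 2 (adjusted p = 0.484), replicate 3 (0.356) or the library block (0.153), with DESeq2 (0.129) or RLE scaling (0.0573), without doublet removal (-0.85, adjusted p = 0.202) and at resolution 1 (0.108). Col9a1 lay at -1.11 ± 0.43 (adjusted p = 0.0504). All 8 members were lower in 2 of 2 libraries. Without replicate 1, 51.6% of all genes and all 8 members passed, with log2 changes from -0.77 for Col11a1 to -1.51 for Col9a3 and -1.34 for Col2a1. For Col10a1 this compares low levels, as 8 columnar cells held 74.0% of the columnar UMIs. In replicate 2 the Col10a1 of both states lay under that of haematopoietic cells, whose UMIs sat mostly in 1 cell.

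In the cycling state Col27a1 lay at 0.754 and 0.693 of the columnar level in replicates 2 and 3, and Col10a1 at 0.281 and 0.649. None of the 8 members passed in the fit of 3 libraries by edgeR, where 14.1% of all genes did, 7.33% being higher and 6.76% lower; none of the 8 had an unadjusted p under 0.05, and DESeq2 called none. The change was -0.22 ± 0.80 for Col2a1 (adjusted p = 0.9) and at most -1.24 ± 0.69 for Col10a1 (adjusted p = 0.258). Without replicate 1, 32% of all genes and 6 members passed, all lower, by 0.32 to 0.57 on the log2 scale, whereas Col2a1 (-0.10, adjusted p = 0.615) and Col10a1 (-1.24, adjusted p = 0.103) did not. Col10a1 passed as lower at most 10% mitochondrial UMIs (-2.88, adjusted p = 0.00997) and without the low-count filter (-1.24, adjusted p = 0.00149). Few cells carry these Col10a1 levels: 8 cells held 74.0% of the columnar UMIs and 1 cell held 56.2% of the cycling UMIs.

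**Figure D2:**
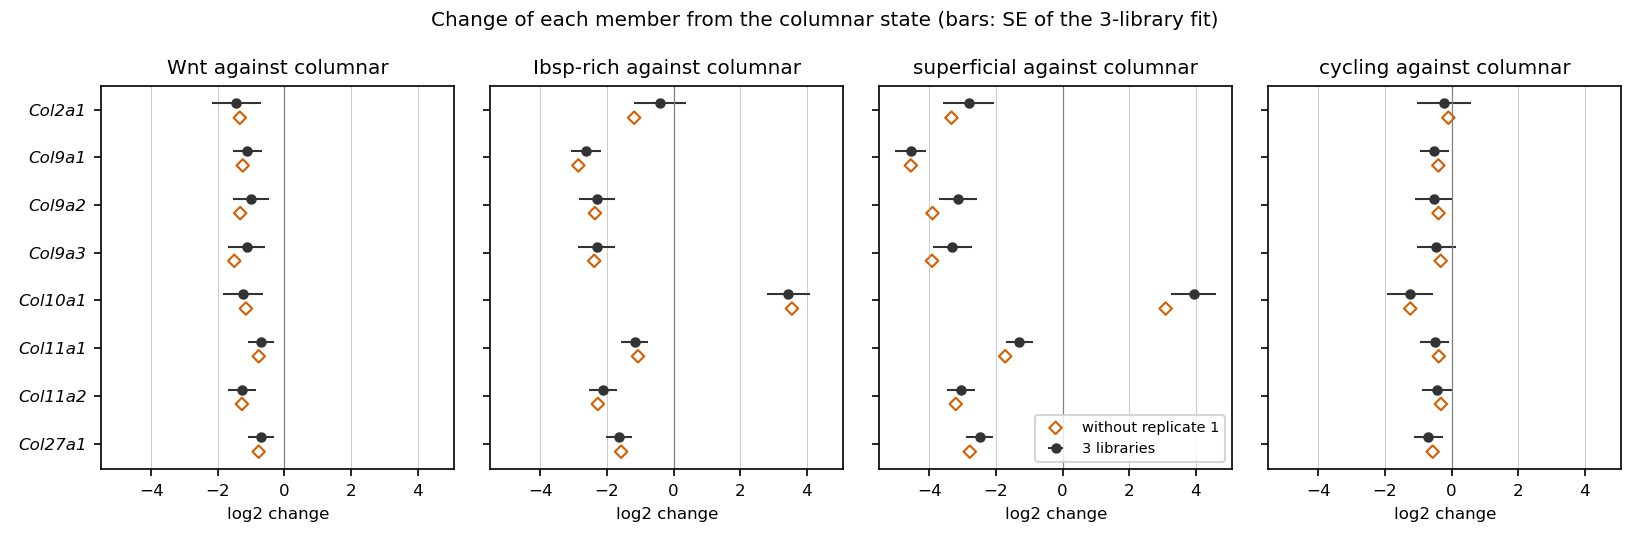
Log2 change of each member from the columnar state in the Wnt-marker, Ibsp-rich, superficial and cycling states; filled circles with SE bars are the fit of 3 libraries and open diamonds the fit without replicate 1. Col10a1 lies at 3.45 and 3.94 in the Ibsp-rich and superficial states, the other members lie below 0 there, and all changes of the cycling state lie between -1.24 and 0.

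Replicate 1 differed from the other libraries within the same states. In the Wnt-marker, Wif1-rich, Ibsp-rich and superficial states, the mean CPM of replicates 2 and 3 was 13.9, 14.6, 4.09 and 7.17 times that of replicate 1 for Col2a1 and 18.1, 14.4, 15.3 and 40.1 times for Col9a1. The Col9a1 levels of replicate 1 rest on 23, 6, 23 and 9 UMIs, and its superficial level in replicates 2 and 3 was 2.24 and 1.64 times the haematopoietic one. For Col9a2 the ratio was 2.52, 3.05, 4.66 and 2.18. For Col11a2 it was 2.70, 3.12, 2.43 and 3.08. For Col27a1 it was 0.662, 0.967, 1.03 and 0.689, so replicate 1 was higher in the Wnt-marker and superficial states and near the others in the remaining 2. Col10a1 was lower in replicate 1 in the Wnt-marker state (2.40), near level in the Wif1-rich (1.07) and Ibsp-rich (1.41) states, and higher in replicate 1 in the superficial state (0.399). Replicate 1 also had far fewer chondrocytes and its Wnt-marker, Wif1-rich and Ibsp-rich states held 53, 25 and 113 cells. The free RNA was also lowest in replicate 1 for Col2a1, the collagen IX and the collagen XI genes. For Col27a1 it rose as well (2.27, 21.9 and 33.8 CPM), although the state levels did not. For Col10a1 it was 20.1, 54.1 and 8.08 CPM, without that order. The part of these in the difference was not tested, and with 1 such library batch and cell make-up cannot be told apart.

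**Figure D3:**
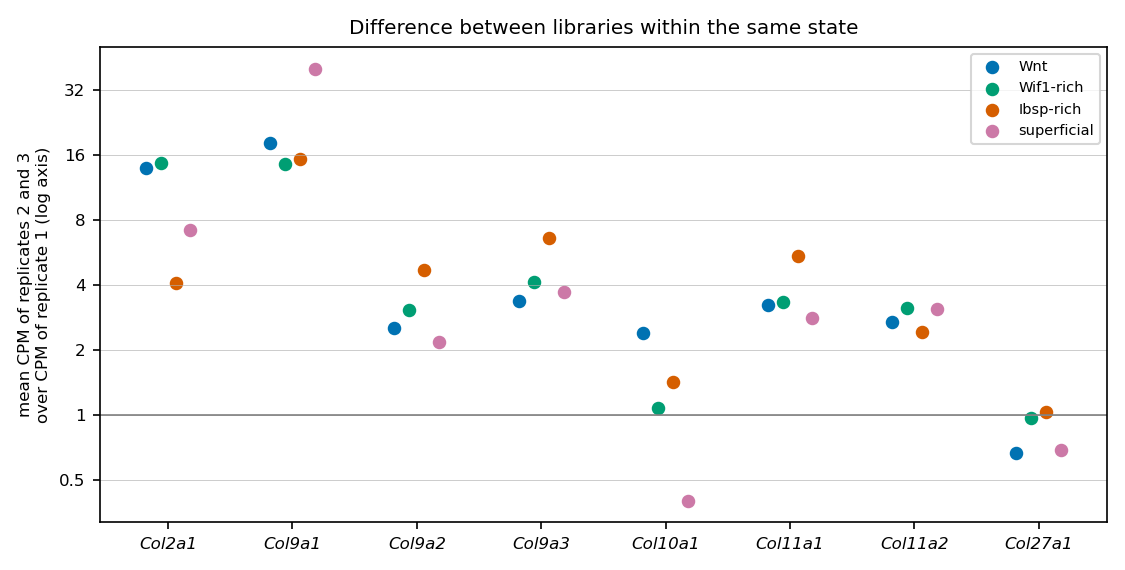
Mean CPM of replicates 2 and 3 divided by the CPM of replicate 1 (y axis, log scale) for each member (x axis) in 4 states with at least 20 cells in every library; each point is 1 state. Col9a1 lies between 14.4 and 40.1, the Col9a2 points between 2.18 and 4.66, and Col27a1 between 0.662 and 1.03.

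The members also differed in their proportions. The 8 genes made up 6.82% and 6.27% of all UMIs of columnar cells in replicates 2 and 3 and 0.74% and 0.72% of those of superficial cells. Within a population a ratio of UMIs between 2 genes carries an unknown gene-specific capture factor, but the same ratio can be compared across populations. Col11a1 UMIs per Col11a2 UMI were 2.19 and 2.14 in the columnar state, 2.17 and 1.98 in the cycling state, 3.08 and 3.07 in the Wnt-marker state, 4.39 and 4.19 in the Wif1-rich state, 5.02 and 4.97 in the Ibsp-rich state and 6.44 and 5.72 in the superficial state of replicates 2 and 3. Osteoblast-like cells had the lowest ratio of the populations plotted, 0.73, 1.11 and 1.05 in replicates 1, 2 and 3. In replicate 1 the superficial ratio was 6.68 but the Ibsp-rich ratio 2.24. Col2a1 UMIs per Col11a2 UMI were 15.1 and 14.8 in the columnar state, 37.3 and 33.7 in the Wif1-rich state and 0.42 and 0.53 in osteoblast-like cells. The share of Col9a1 in collagen IX UMIs was 24.7% and 25.1% in the columnar state and 17.4% and 17.7% in the superficial state, and in replicate 1 it was 1.51% in the superficial state.

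**Figure D4:**
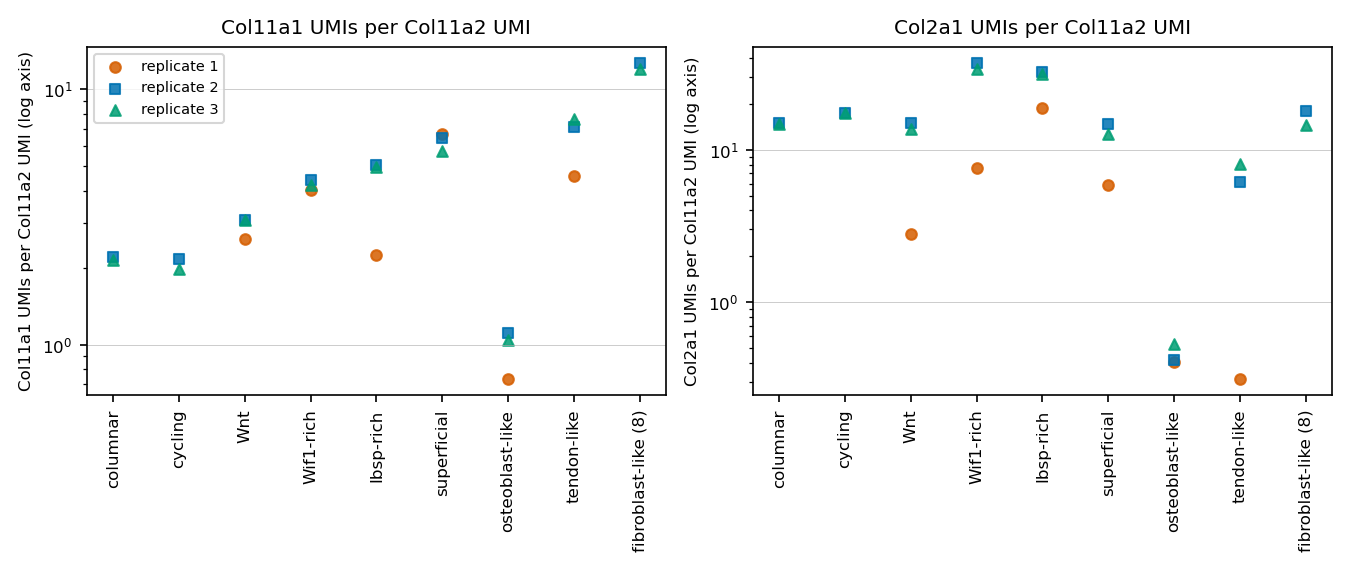
UMIs of Col11a1 (left) and of Col2a1 (right) per UMI of Col11a2, on log axes, in 9 populations; each point is 1 library. The left ratio is 2.19 and 2.14 in the columnar state, about 6 in the superficial state and about 1 in osteoblast-like cells, and the right ratio is below 1 in osteoblast-like cells of all 3 libraries and in tendon-like cells of replicate 1; tendon-like Col2a1 was below the haematopoietic level in replicates 2 and 3.

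Other genes were ranked by how closely they followed each member across 34 sums of a population and a library. The points share libraries and free RNA, and the correlation of log2(CPM + 10) is a description. Col9a3 was followed by Mia (r = 0.98), a secreted cartilage protein, Cnmd (0.97), the chondromodulin gene, and Hapln1 (0.95), the cartilage link protein. Col9a2 had the same 3 genes (0.96, 0.96 and 0.95). Col9a1 was followed by Cnmd (0.94), Matn3 (0.93) and Ucma (0.90), and Col2a1 by Mia (0.92), Snorc (0.91) and Hapln1 (0.91). Col11a1 was followed by Sparc (0.90), a collagen-binding protein abundant in bone, Kdelr3 (0.88), an endoplasmic reticulum retrieval receptor, and P3h4 (0.86), a component of the collagen-modifying complex. Col11a2 was followed by Sdc3 (0.86), Cgref1 (0.84) and Ckap4 (0.83). Col27a1 was followed by Slc26a2 (0.95), a sulfate transporter, Papss2 (0.93), which makes the sulfate donor for proteoglycans, and Me1 (0.93). Col10a1 was followed by Cytl1 (0.85), Lgr6 (0.84) and Csgalnact2 (0.80). Among the members themselves Col9a2 and Col9a3 were closest (0.97), and Col10a1 was far from all others (0.19 to 0.44).

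Genes that process, bind or accompany these collagens were taken from 5 lists. They could take part in the clustering, so their changes are descriptions. Some of them, such as Acan, Epyc, Prg4, Cilp, Col1a1 and Col3a1, are also on the marker lists that named the populations. Counts are to be read against the shares of all genes. Between the superficial and the columnar state, where 20.2% of all genes were higher and 23.4% lower, 6 of 34 collagen processing genes were higher and 16 lower, with a median log2 change of -0.58 against -0.05 over all genes. Lox, which cross-links collagen, changed by 5.83, and P4ha3, a prolyl hydroxylase subunit, by -3.87. Of 15 chondrogenic regulators 3 were higher and 6 lower, with Barx1 at 5.06, Runx3 at -6.21 and Runx2, a driver of hypertrophy and bone formation, at -5.85. In the Ibsp-rich state, where 22.2% of all genes were higher and 23.3% lower, 7 of 34 processing genes were higher and 15 lower (median -0.49 against -0.02), with Lox at 4.45, Adamts2, a procollagen protease, at 3.96 and P4ha3 at -3.87. There 11 of 20 other collagens were higher and 3 lower, with a median of 0.85 and with Col3a1 at 6.24 and Col1a1 at 5.90. Col1a1 and Col3a1 encode collagens of bone and soft connective tissue. Of 20 cartilage matrix partners 7 were higher and 7 lower, with Prg4 at 7.04, Cilp at 5.31 and Epyc, a small proteoglycan of the growth plate, at -5.41.

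In the Wnt-marker state, where 15.5% of all genes were higher and 14.2% lower, 5 of 34 processing genes were higher and 14 lower (median -0.49 against -0.02), and 7 of 20 other collagens were higher and 1 lower, with Col8a1 at 4.89. In the cycling state, where 7.33% of all genes were higher and 6.76% lower, none of 34 processing genes was higher and 2 were lower, Fkbp14 (-0.92) and Mia2 (-0.81). Of 8 collagen receptors tested, none passed there. In the Ibsp-rich state 2 were higher and 2 lower, where 22.2% of all genes were higher and 23.3% lower. Ddr1, a receptor kinase for collagen, lay at -1.96 and Itga10, the collagen II integrin, at 1.66. In the superficial state 2 were higher and 3 lower, where 20.2% of all genes were higher and 23.4% lower. Against haematopoietic cells, where 35% of all genes were higher and 31.4% lower, 32 of 34 processing genes were higher in the columnar state, with Serpinh1, a collagen chaperone, at 5.81. Against the other mesenchymal clusters, 26.6% of all genes were higher in the chondrocyte-like clusters and 13.9% lower. Of 20 matrix partners 18 were higher and none lower, with Acan at 5.09. Of 20 other collagens 7 were higher and 10 lower, with Col1a1 at -3.90. Many of these partners, Acan among them, are on the list that named the chondrocyte-like clusters, and Col1a1 is on the osteoblast-like list. The naming therefore fixed part of this outcome in advance.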

How the data were processed

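Per the labels and the study's methods, the authors made droplet libraries with a 3′ gene expression kit, and the submitters' notes name Cell Ranger 7.1.0 and build mm10. The deposited files hold raw UMI counts per gene and called barcode (20307 in all), which is fewer than the cell total that the study states. Cell populations were rebuilt from the counts, so differences from the study may come from their names.

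Barcodes under 200 genes or over 20% mitochondrial UMIs were dropped (825 in all), and the highest doublet scores of each library were removed, 0.8% per 1000 cells (1250 in all). Cells were clustered with scanpy 1.11.5 and leidenalg 0.10.2 (2000 variable genes, 30 components, 15 neighbours, resolution 1, mesenchymal cells again at 0.5) and named from marker lists that hold none of the 8 members. Each list in turn took the cluster with the highest mean level among those not yet taken; the Wif1 list scored higher in the Ibsp-rich cluster (3.50), already taken, than in the Wif1-rich one (3.34). The order in which states were drawn was changed after the clusters had been seen, with cycling and columnar first, since the first order gave the columnar cluster another name. Counts were summed per population and library with at least 20 cells and tested with edgeR 4.0.16 (R 4.3.3; TMM, low-count filter, quasi-likelihood, library as block since all populations of a library share it, adjusted p below 0.05). The superficial, Ibsp-rich and Wnt-marker sums of replicate 1 enter without a columnar partner. In simulated data for the Ibsp-rich against the columnar state (15641 genes), 69% of seeded log2 changes of 1 and 100% of those of 2 were recovered (100 genes each). The simulation gave every library the same base levels and so left out the departure of replicate 1 seen for several members. These rates need not hold for those members. Alternatives were DESeq2 1.42.0, other scalings, filters, clusterings and left-out libraries. For each member the 3 genes with the highest correlation over 34 sums, among genes with a mean of at least 50 CPM, were named, and per list and comparison up to 3 genes with the largest change past the threshold and the same direction in every library. The members and lists were chosen with earlier results of these data known. Levels are compared across populations of the same gene, since 3′ counts carry no length but a gene-specific capture. The count of cells limits precision, and counting intervals cover counting error only.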

Additional observations from a re-analysis of the deposited data

Results flagged for a closer look

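Schwann-like cells (176 cells; 123, 28 and 25 in replicates 1, 2 and 3) entered no comparison, yet 5 members lay above the haematopoietic level of the same library in 3 of 3 libraries. Over the 3 libraries the mean was 1103 CPM for Col2a1, 417 CPM for Col11a1, 338 CPM for Col27a1, 194 CPM for Col9a2 and 162 CPM for Col11a2. For Col27a1 the values were 536, 128 and 350 CPM in replicates 1, 2 and 3, against 2.27, 21.9 and 33.8 in haematopoietic cells. For Col2a1 the ratio to haematopoietic cells was 25.8, 1.38 and 1.74 in replicates 1, 2 and 3. The Schwann-like cells were shallow, with a median of 1835, 1723 and 1264 UMIs against 9066, 16886 and 8267 in haematopoietic cells, and the part of this in the difference was not tested. Col9a1 was not above that level in any library.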

How the results depend on the processing

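Each of the 48 member changes was recomputed under 15 alternatives, 720 values in all, of which 644 kept direction and side of the threshold, 32 gained the call, 37 lost it and 7 reversed. Reversals concerned Col2a1 in the Ibsp-rich against the columnar state and Col10a1 in the columnar state against haematopoietic cells. The Col2a1 change was -0.41 as reported and -1.18, 0.24 and 0.07 without replicates 1, 2 and 3. It was 0.59 without doublet removal, 0.30 at most 10% mitochondrial UMIs and 0.33 with the members kept among the variable genes. Settings that changed the cells or the clustering picked every state anew. In those 3 settings the cluster picked as Ibsp-rich held 3582, 4350 and 3948 cells against 1797 as reported, so other cells were compared. The Col10a1 change was 0.37 as reported, 1.82 without replicate 2 and -0.99 without replicate 3. With the free RNA of the members subtracted (chosen after seeing the data) it was -1.24. The reversed values did not pass, and the cause was not tested. Leaving out each library in turn gave 6361 to 11572 called genes for the columnar state against haematopoietic cells (10799 with all), 4419 to 7985 for chondrocyte-like against other mesenchymal clusters (6607), 1945 to 9554 for the Ibsp-rich (7419), 343 to 4991 for the cycling (2293), 2019 to 9277 for the superficial (7104) and 265 to 8061 for the Wnt-marker state (4841). The high counts are those without replicate 1; leaving out replicate 2 or 3 leaves the columnar state 1 library, assumed to vary like the others. Without the library as a block the cycling state had 1509 called genes, and Col9a1, Col9a3 and Col11a1 in the Ibsp-rich state, Col11a1 in the superficial state and Col11a2 in the Wnt-marker state lost their calls. At mesenchymal resolution 1 the chondrocyte-like comparison had 4167. The Col11a1 call of the Ibsp-rich state was lost with DESeq2 (adjusted p = 0.0817), RLE scaling (0.0509), at most 10% mitochondrial UMIs (0.0565) and no library block (0.203), beside the settings given above, and without a filter on low counts all 8 members of the Wnt-marker state passed. The summed level of the members in the columnar state was 65488 CPM, 49801 from sums of at least 10 cells (which adds replicate 1), 70087 with their own UMIs left out of the library size and 62742 to 68234 with each library left out. The shallow osteoblast-like cells and the few chondrocytes of replicate 1 limit what depth can show.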
